A study of Homo sapiens with 4 samples.

Results

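The colorectal cancer driver genes APC, CTNNB1, NRAS, BRAF, PIK3CA, SMAD4, FBXW7 and TGFBR2, were examined for binding of BRD8, a bromodomain protein that belongs to the TIP60/NuA4 acetyltransferase, which modifies histones. They were taken by name, 8 of 19970 protein-coding genes on chromosomes 1 to 22 and X. Every BRD8 peak was assigned to a gene when its summit, the position of highest signal, lay between the gene's ends or within 1 kb of either end. This gave 20 of 22303 HCT116 peaks and 10 of 12874 SW480 peaks. The lists came from chromatin immunoprecipitation sequencing (ChIP-seq) of HCT116 and SW480, both established human colorectal cancer lines, with no treatment named in the labels. HCT116 was kept in McCoy's 5A medium and SW480 in Leibovitz's L-15, each with fetal bovine serum. Each line gave 1 BRD8 library, made with a polyclonal antibody from formaldehyde-fixed chromatin cut by micrococcal nuclease, and 1 input library. Differences between HCT116 and SW480 rest on 1 ChIP library each and were not tested. The lists measure binding and not RNA, so the labelled cell type was not checked against marker genes.

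The 8 genes stand at control points of a few pathways. APC holds the destruction complex that marks β-catenin, the product of CTNNB1, for degradation, and stabilised β-catenin carries the Wnt signal to the nucleus. NRAS is a small GTPase that activates the kinase BRAF at the head of the mitogen-activated protein kinase (MAPK) cascade, and PIK3CA is the catalytic subunit of a phosphoinositide 3-kinase (PI3K). TGFBR2 is the type II receptor of transforming growth factor β (TGF-β), and SMAD4 is the common SMAD that brings the signal to DNA. FBXW7 is the substrate receptor of an SCF ubiquitin ligase and removes growth-promoting proteins. As background, HCT116 is known for a stabilising CTNNB1 mutation and inactivated TGFBR2, and SW480 for truncated APC. The peak lists hold no genotype, and copy number was not analysed here.

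Promoter windows of 300 bases are shown for the genes with a peak region over an annotated start and for the genes with no peak. NRAS had a peak over its start in both lines, CTNNB1 and TGFBR2 had one over an annotated start in HCT116 alone, and APC, with its upstream and its inner start, and SMAD4 had none. BRAF, FBXW7 and PIK3CA are not shown, and no region covered an annotated start of theirs. The nearest summits were 212 bp (HCT116) and 806 bp (SW480) from the BRAF start, and 766 and 494 bp from the outermost FBXW7 start. At PIK3CA they were 1271 and 730 bp away. The annotated starts of BRAF and PIK3CA lie 661 and 231 bp inside the gene. The sequences are from RefSeq (GRCh38.p14), run in the direction of transcription from 250 bases before to 50 bases after an annotated start, and carry short motif matches in capitals.
NRAS, chr1:114716722-114717021, minus strand: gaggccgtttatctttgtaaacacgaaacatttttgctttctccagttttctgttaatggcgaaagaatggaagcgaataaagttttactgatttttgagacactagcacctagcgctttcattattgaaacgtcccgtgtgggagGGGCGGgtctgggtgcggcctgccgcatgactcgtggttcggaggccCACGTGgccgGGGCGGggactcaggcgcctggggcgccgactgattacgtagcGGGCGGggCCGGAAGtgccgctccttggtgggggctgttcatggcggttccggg
CTNNB1, chr3:41199255-41199554, plus strand: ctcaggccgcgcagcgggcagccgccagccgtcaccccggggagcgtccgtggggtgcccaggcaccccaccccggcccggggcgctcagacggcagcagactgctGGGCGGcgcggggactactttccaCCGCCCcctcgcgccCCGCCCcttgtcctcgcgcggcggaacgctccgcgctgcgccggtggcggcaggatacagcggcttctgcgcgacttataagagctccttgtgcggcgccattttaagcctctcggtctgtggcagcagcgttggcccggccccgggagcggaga
TGFBR2 second start, chr3:30606351-30606650, plus strand: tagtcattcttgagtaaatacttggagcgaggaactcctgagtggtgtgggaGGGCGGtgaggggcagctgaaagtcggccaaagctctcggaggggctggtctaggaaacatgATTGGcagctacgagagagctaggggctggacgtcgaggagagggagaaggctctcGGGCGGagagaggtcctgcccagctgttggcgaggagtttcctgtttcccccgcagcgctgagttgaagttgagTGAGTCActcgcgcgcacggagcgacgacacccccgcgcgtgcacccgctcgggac
APC upstream start, chr5:112707248-112707547, plus strand: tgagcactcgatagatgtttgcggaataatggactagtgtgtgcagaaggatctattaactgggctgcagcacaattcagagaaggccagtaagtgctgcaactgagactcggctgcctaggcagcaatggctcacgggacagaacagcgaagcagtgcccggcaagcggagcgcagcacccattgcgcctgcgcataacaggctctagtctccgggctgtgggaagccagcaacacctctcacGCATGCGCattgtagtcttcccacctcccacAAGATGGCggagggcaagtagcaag
APC inner start, chr5:112737635-112737934, plus strand: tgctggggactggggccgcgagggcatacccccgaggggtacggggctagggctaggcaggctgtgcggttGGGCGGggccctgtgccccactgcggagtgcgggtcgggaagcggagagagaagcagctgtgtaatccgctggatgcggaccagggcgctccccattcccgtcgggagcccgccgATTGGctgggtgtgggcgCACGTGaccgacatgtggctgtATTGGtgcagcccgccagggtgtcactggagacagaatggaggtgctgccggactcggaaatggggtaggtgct
SMAD4, chr18:51029963-51030262, plus strand: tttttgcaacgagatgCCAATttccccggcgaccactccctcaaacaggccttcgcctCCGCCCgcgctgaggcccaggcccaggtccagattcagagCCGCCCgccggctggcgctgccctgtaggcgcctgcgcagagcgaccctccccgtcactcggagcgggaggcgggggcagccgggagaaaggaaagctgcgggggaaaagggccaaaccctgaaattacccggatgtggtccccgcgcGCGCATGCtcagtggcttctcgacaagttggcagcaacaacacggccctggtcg

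The 8 motifs below were searched on both strands, and the capitals can join matches that overlap or touch. They were CCGGAAG (ETS), GCATGCGC (NRF1), AAGATGGC (YY1), GGGCGG (SP/KLF), CCAAT (NF-Y), TGACGT (CRE), CACGTG (E-box) and TGANTCA (AP-1). Among 22131 RefSeq promoters of protein-coding genes, GGGCGG was present in 56.3%, CCAAT in 34.6%, CCGGAAG in 12.8%, TGACGT in 8.92%, CACGTG in 8.34%, TGANTCA in 6.15%, GCATGCGC in 3.74% and AAGATGGC in 3.54%. The NRAS window held 3 GGGCGG, 1 CCGGAAG and 1 CACGTG match. The CTNNB1 window held 3 GGGCGG matches and no other motif of the set. The second TGFBR2 window held 2 GGGCGG, 1 CCAAT and 1 TGANTCA match. Of the genes with no peak, the upstream APC window held 1 GCATGCGC and 1 AAGATGGC match. The inner APC window held 2 CCAAT, 1 GGGCGG and 1 CACGTG match, and the SMAD4 window 2 GGGCGG, 1 CCAAT and 1 GCATGCGC match. No motif of the set was found in all 3 shown windows with a peak and in none of the 3 from genes with no peak. The motifs were picked after the sequences were seen, and so few windows cannot decide whether a motif goes with binding. Of the windows not shown, that of BRAF held 2 CCAAT matches and no GGGCGG. The PIK3CA window held 1 CCGGAAG, 1 GGGCGG and 1 CCAAT match, and that of the outermost FBXW7 start 2 GGGCGG matches. GC content was 57.3% for NRAS, 74.0% for CTNNB1 and 61.7% for the second TGFBR2 start. The first TGFBR2 start, 236 bp from an HCT116 summit, had 42.3%. It was 56.3% and 68.0% for the APC starts and 66.7% for SMAD4, all between the first TGFBR2 start and CTNNB1. Over all promoters the median was 62.3%. It was 65.0% for genes with an HCT116 peak within 1 kb of the start and 59.3% for those without, and 64.0% and 61.7% by the SW480 peaks. The median number of CpG dinucleotides in a window was 26 with an HCT116 peak and 12 without, and 26 and 18 in SW480.

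BRD8 peaks were found at 6 of the 8 genes in each line, and they were the same genes: CTNNB1, NRAS, BRAF, PIK3CA, FBXW7 and TGFBR2. APC and SMAD4 had no peak in either line. By the same rule 52.3% of all protein-coding genes had a peak in HCT116 and 29.8% in SW480, against 75.0% of these 8 in each line. Driver genes are long, with a median of 89878 bp against 24190 bp for all coding genes, and a longer gene has more room for a peak. Among coding genes of 0.5 to 2 times the length of each member, the share with a peak ran from 51.2% (NRAS) to 62.8% (TGFBR2) in HCT116 and from 26.1% (NRAS) to 40.6% (BRAF) in SW480. A peak was found in both lines at 26.7% of coding genes and in neither at 44.6%. The SW480 count rests on weak peaks: at a −log10 q of at least 5 it fell to 2 genes, NRAS and TGFBR2, while 19.0% of coding genes kept a peak. HCT116 kept 5 genes at that threshold, with 43.2% of coding genes.

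Binding at gene ends was at the start of the gene in every case. Peak summits lay within 1 kb of an end at 5 driver genes in HCT116 (CTNNB1, NRAS, BRAF, FBXW7 and TGFBR2) and at 4 in SW480 (NRAS, BRAF, PIK3CA and FBXW7), against 44.0% and 22.1% of coding genes. None of the 8 genes had a peak within 1 kb of its far end. Over the 15811 coding genes for which the RefSeq promoters give a strand, 44.9% had a summit within 1 kb of the gene start in HCT116 and 4.54% within 1 kb of the far end. In SW480 these shares were 23.1% and 1.49%, so the driver gene peaks at ends had the position of most gene-end peaks. Peaks at ends were 6 of the 20 HCT116 and 4 of the 10 SW480 driver gene peaks. The map of peaks around the gene starts shows them.

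**Figure D1:**
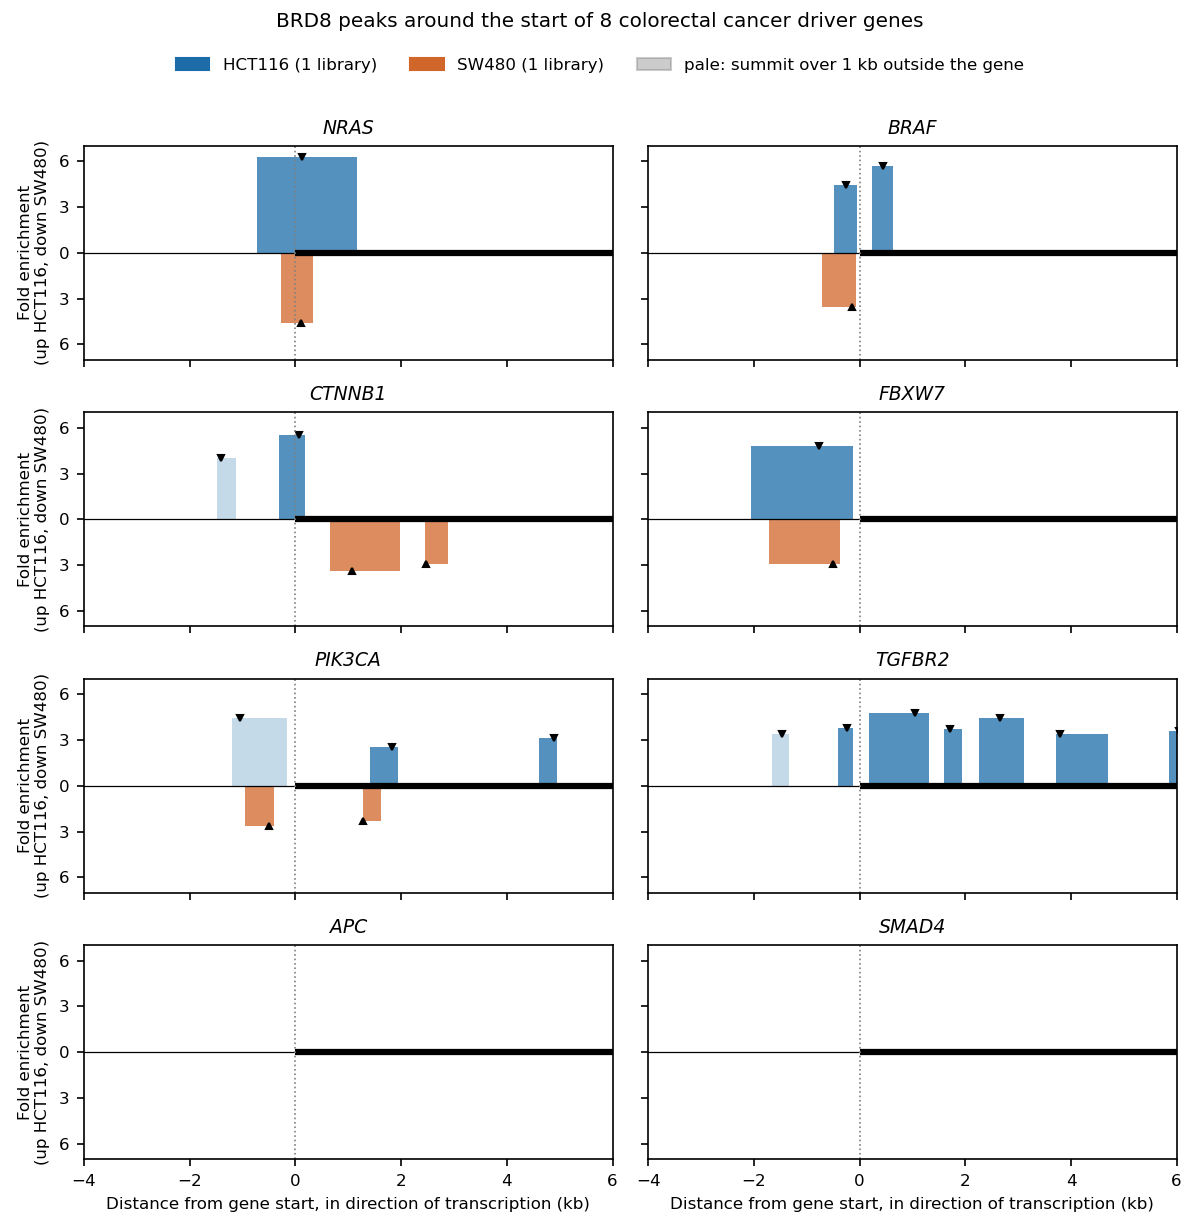
BRD8 peak regions around the start of the 8 genes, with distance from the gene start in kb along the x axis and the deposited fold enrichment on the y axis, upwards for HCT116 and downwards for SW480 (1 library each). Triangles mark summits, the thick black line the gene, and pale regions have a summit over 1 kb outside the gene. NRAS, BRAF and FBXW7 have overlapping peaks of both lines at the start, CTNNB1 has peaks of the lines in different places, and APC and SMAD4 have none.

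The peaks were of ordinary strength for these lists. Fold enrichment, the authors' ratio of ChIP signal to local background at the summit, ran from 2.45 to 6.31 over the 20 HCT116 peaks, with a median of 3.79 against 3.70 for the whole list. In SW480 it ran from 2.28 to 4.57, with a median of 3.17 against 3.34. TGFBR2 gave 13 of the 20 HCT116 peaks, with folds of 2.45 to 4.75, so the HCT116 median rests largely on 1 gene. The highest fold was larger in HCT116 than in SW480 at all 6 bound driver genes, which is what 89.0% of the 5334 coding genes bound in both lines showed. Over the bound genes the median of the highest fold was 5.17 in HCT116 and 3.48 in SW480, and over all bound coding genes it was 4.86 and 3.54. Fold moves with sequencing depth and with the input, so values of the lines stand side by side and ranks are within a list.

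CTNNB1, on chromosome 3 (41199505 to 41240443, GRCh38, plus strand), was bound near its start in both lines, but not at the same place. In HCT116 its peak (41199190 to 41199692) had its summit 64 bp inside the gene, covered the start, and reached a fold of 5.52 (−log10 q 13.1). A second HCT116 peak with a fold of 4.003 had its summit 1403 bp upstream, outside the rule's 1 kb. In SW480 the summits lay 1073 bp and 2465 bp downstream of the start, with folds of 3.40 and 2.95 and −log10 q of 4.28 and 1.82. No SW480 region covered the start and no region of one line overlapped a region of the other. Of the 5334 coding genes bound in both lines, 89.4% had an HCT116 peak that overlapped a SW480 peak. CTNNB1 was among the rest.

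APC, on chromosome 5 (112707498 to 112846239, plus strand), had no BRD8 peak over its 138742 bp in either line. RefSeq lists a start at the upstream end of the gene and another 30387 bp further in. The summit nearest the upstream start was 153558 bp away in HCT116 and 13647 bp away in SW480. Past the far end of the gene, the nearest HCT116 peak (112860479 to 112861956, fold 6.29, −log10 q 20.0) lay 14817 bp away, with its summit 231 bp from an end of SRP19, a signal recognition particle gene. The nearest SW480 peak was upstream and had a fold of 3.58. Of coding genes, 38.1% were at least as far from a summit in HCT116 and 61.5% in SW480, so the absence of a peak is common. Within 1 Mb of APC there were 20 HCT116 and 22 SW480 peaks, against medians of 23 and 11 over coding genes.

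Of 25 genes of receptors, destruction complex parts and nuclear partners of β-catenin, 21 had a peak in HCT116 (84.0%) and 10 in SW480 (40.0%). All 10 also had one in HCT116, as did 5334 of the 5942 coding genes with a SW480 peak. All coding genes had 52.3% and 29.8%, and those of 0.5 to 2 times this list's median length 62.5% and 37.5%, so the SW480 share was near that of genes as long. Over the bound members the median highest fold was 5.02 for HCT116 and 4.01 for SW480, and over all bound coding genes 4.86 and 3.54. DVL1, a Dishevelled protein that relays the Wnt signal, had the highest HCT116 fold at 8.34 and 3.35 in SW480. ZNRF3, a ubiquitin ligase that removes Wnt receptors, had 6.81 and 4.86 with 8 and 11 peaks, and CSNK1D, a casein kinase, had 6.22 and 4.80. By number of peaks, RNF43 had 13 in HCT116 and 5 in SW480, BCL9L 10 and 3, and TCF7L2 10 and 5. AXIN1, the scaffold of the destruction complex, the ubiquitin ligase receptor BTRC, and the transcription factors LEF1 and TCF7 had no peak in either line.

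NRAS, on chromosome 1 (114704469 to 114716771, minus strand), had the strongest peak of the 8 genes in each line, and the overlapping peaks with the closest summits. In HCT116 the peak was 1899 bp wide (114715597 to 114717495), with fold 6.31 and −log10 q 24.7. In SW480 it was 603 bp wide (114716434 to 114717036), with fold 4.57 and −log10 q 15.3. Both regions covered the gene start, and the summits, 130 bp and 106 bp inside the gene, were 24 bp apart. By −log10 q the NRAS peak stood in the top 7.95% of the HCT116 list and the top 6.94% of the SW480 list, and the gene ranked 2052 of 10449 bound coding genes in HCT116 and 915 of 5942 in SW480. The coding genes nearest to NRAS in the log2 fold of both libraries were PBDC1 (folds 6.32 and 4.56), TSEN15 (6.34 and 4.57) and DYNC1I2 (6.33 and 4.51). They were taken from 4051 genes with a gene-end peak in both lines, of which 45 lay within a distance of 0.1, and 2 libraries give a loose measure of likeness.

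BRAF, on chromosome 7 (140713328 to 140924929, minus strand), had 2 HCT116 peaks at its start and 1 in SW480. The HCT116 summits lay 449 bp inside the gene, with fold 5.69 and −log10 q 10.9, and 249 bp upstream, with 4.47 and 7.59. The SW480 summit lay 145 bp upstream, with fold 3.55 and −log10 q 4.22, and overlapped the upstream HCT116 peak with summits 104 bp apart. The stronger HCT116 peak, inside the gene, had no SW480 counterpart. RefSeq promoters place the BRAF start 661 bp inside the gene, and the summit of this peak was 212 bp upstream of it. The start of the long noncoding RNA gene LOC105375536, which runs the other way, was 86 bp from the upstream HCT116 summit and 18 bp from the SW480 summit. The rest of the 211602 bp gene held no peak.

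Among 20 other RAS-RAF-MAPK genes, 17 had a peak in HCT116 (85.0%) and 4 in SW480 (20.0%), against 62.8% and 39.1% of coding genes of similar length. The 4 were LZTR1, SHC1, SOS1 and SOS2. The median highest fold was 5.06 over the 17 genes bound in HCT116 and 3.80 over the 4 bound in SW480. SPRED1, an inhibitor of RAF activation, had the highest HCT116 fold at 8.71 and no SW480 peak. SHC1, an adaptor that couples receptors to RAS, had 7.42 and 4.16. ARAF, a close relative of BRAF, NF1 and SPRY2 had no peak in either line.

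PIK3CA, on chromosome 3 (179148126 to 179240093, plus strand), had the lowest −log10 q of the 6 bound genes when each is taken at its strongest peak. In HCT116 the summits lay 1830 bp and 4886 bp inside the gene, with folds of 2.52 and 3.16 and −log10 q of 1.68 and 2.56. In SW480 they lay 499 bp upstream and 1272 bp inside, with folds of 2.65 and 2.28 and −log10 q of 2.09 and 1.33. These peaks stood at the weak end of the lists: by −log10 q the HCT116 ones were 21645 and 19078 of 22303, and the SW480 ones 11462 and 12851 of 12874. A stronger HCT116 peak (179146924 to 179147960, fold 4.42, −log10 q 6.34) had its summit 1040 bp upstream, 40 bp beyond the 1 kb limit. It overlapped the upstream SW480 peak, with summits 541 bp apart, and so PIK3CA had a gene-end peak in SW480 and not in HCT116 only by where the limit fell. The start of PIK3CA-DT, a divergent long noncoding RNA gene, was 346 bp from the upstream SW480 summit.

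Among 17 other PI3K-AKT genes, 15 had a peak in HCT116 (88.2%) and 6 in SW480 (35.3%), against 62.1% and 39.0% of coding genes of similar length, with a median highest fold of 4.21 and 2.91. RICTOR, the defining subunit of the kinase complex mTORC2, had the highest HCT116 fold at 8.57 and no SW480 peak. PDPK1, the kinase that activates AKT, had 6.54 and 2.29, and INPP4B, a lipid phosphatase, had 5.33 and 3.74. TSC1 had no peak in either line. The regulatory subunit PIK3R1, which binds PIK3CA, had 4.21 and 4.13.

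TGFBR2, on chromosome 3 (30606356 to 30694142, plus strand), carried a run of peaks in HCT116 that SW480 did not share. There were 13 HCT116 peaks, more than at any other of the driver genes examined. Of the 13, 12 lay within the first 25 kb, with summits from 236 bp upstream to 24454 bp inside. The count was not unique to TGFBR2, since RNF43 of the Wnt partners also had 13 HCT116 peaks, in a shorter gene (65035 bp against 87787 bp). In HCT116 0.180% of coding genes (36 of 19970) had 13 or more peaks, and 0.285% of the 5255 coding genes of similar length had as many. The folds were modest, from 2.45 to 4.75, with summit pileups of 15 to 31 overlapping fragments. The strongest peak (30606529 to 30607674, fold 4.75, −log10 q 10.4) covered the second annotated start of the gene, and the peak 236 bp upstream had a fold of 3.79. Another 3 HCT116 peaks lay within 10 kb upstream of the gene, with summits 1459, 7337 and 9426 bp from the start and folds of 3.37, 3.58 and 5.06. Of the 13 peaks 7 had the lowest local background of the list, 3.75 fragments, which is shared by 11.1% of HCT116 peaks. Most of the run was weak: at a −log10 q of at least 5, 4 of the 13 peaks were left, a number that 0.851% of coding genes reached at that threshold. Among the 12874 strongest HCT116 peaks 5 were left, a number that 0.476% of coding genes reached.

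In SW480, TGFBR2 had 3 peaks, and none within 25 kb of its start. They stood together 51850, 52574 and 53413 bp inside the gene, with folds of 3.93, 4.13 and 2.84 and −log10 q of 4.55, 5.44 and 2.33. The last HCT116 peak, 52621 bp inside with a fold of 3.40, overlapped the middle one, with summits 47 bp apart. This was the 1 site of TGFBR2 called in both lines. The start of a second coding gene, LOC105377015, which runs the other way, lay 804 bp and 472 bp from the first 2 HCT116 summits of the run.

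**Figure D2:**
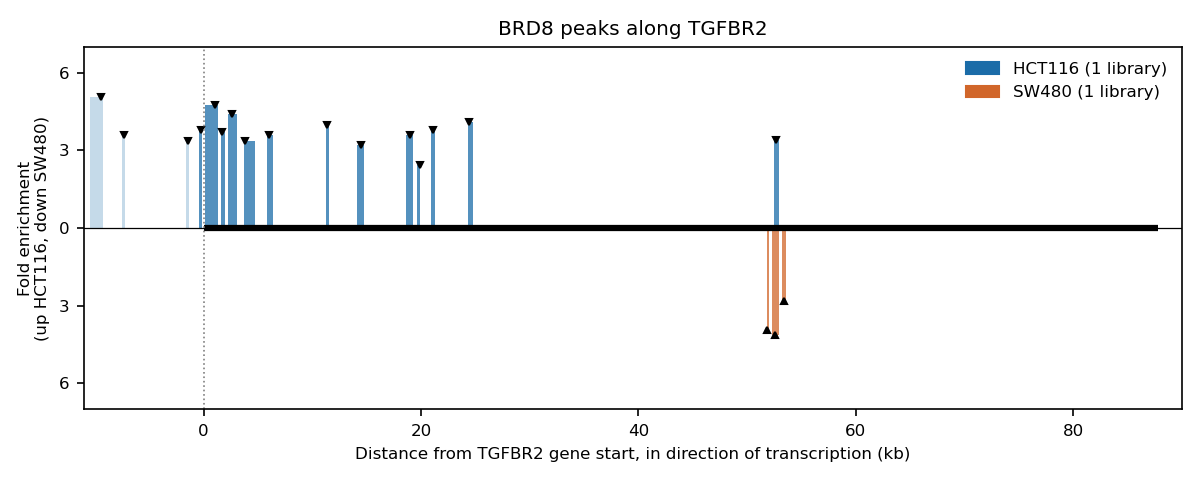
BRD8 peaks along TGFBR2, with distance from the gene start in kb on the x axis and the deposited fold enrichment on the y axis, upwards for HCT116 and downwards for SW480 (1 library each). Pale regions are upstream of the rule's 1 kb, triangles mark summits and the black line is the gene. The HCT116 run is spread over the first 25 kb, and both lines have a peak near 52.6 kb.

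SMAD4, on chromosome 18 (51030213 to 51085042, plus strand), had no peak in either line, and its surroundings were sparse in SW480. The nearest HCT116 summit was 62356 bp upstream, in a peak (50967245 to 50968963, fold 5.47) at an end of ELAC1, a tRNA-processing enzyme gene. The nearest SW480 summit was 722122 bp upstream, with a fold of 4.33, and 6.06% of coding genes lay at least as far from a SW480 summit. Within 1 Mb of SMAD4 there was 1 SW480 peak, against a median of 11, and 4.02% of coding genes had fewer. HCT116 had 9 peaks there, against a median of 23, and 17.5% of coding genes had fewer.

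Of 22 other TGF-β/SMAD genes, 16 had a peak in HCT116 (72.7%) and 7 in SW480 (31.8%), against 63.0% and 39.2% of coding genes of similar length, with a median highest fold of 3.87 and 3.69. TGIF1, a repressor that binds SMADs, had the highest HCT116 fold at 5.82 and 4.25 in SW480. SMAD1, a receptor-regulated SMAD of bone morphogenetic protein signalling, had 5.71 in HCT116 alone, and BMPR1A, a receptor of that branch, had 5.20 and 2.76. SMAD3, a partner of SMAD4, had 9 HCT116 and 3 SW480 peaks. TGFBR1, the receptor that pairs with TGFBR2, had 1 HCT116 peak with a fold of 2.92 and none in SW480. SMURF1, a ubiquitin ligase, had a peak in SW480 alone at 3.38. LTBP1, SKI, SMAD7, TGFB2 and TGFB3 had none in either line.

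FBXW7, on chromosome 4 (152320544 to 152536092, minus strand), was bound in both lines just upstream of its outermost start and nowhere else in its 215549 bp. In HCT116 the peak was 1930 bp wide (152536214 to 152538143), with its summit 766 bp upstream, fold 4.82 and −log10 q 12.5. In SW480 it was 1335 bp wide (152536465 to 152537799), with its summit 494 bp upstream, fold 2.90 and −log10 q 3.70. The regions overlapped with summits 272 bp apart. Neither covered the FBXW7 start, and both lay mostly over MIR4453HG, a noncoding gene that runs the other way from a start 594 bp and 322 bp from the summits. FBXW7 has different transcripts from several starts, and RefSeq lists inner starts 851, 153563 and 183266 bp from the outermost one. No summit of either line lay within 1 kb of any of these 3. At the 2 distant ones the nearest summits were over 150 kb away.

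Of 15 other genes of SCF ligases and their activation, 14 had a peak in HCT116 (93.3%) and 6 in SW480 (40.0%), against 58.9% and 33.1% of coding genes of similar length, with a median highest fold of 5.08 and 5.05. CAND1, which exchanges the substrate receptors of these ligases, had 16.5 and 5.49, above every driver gene. RBX1, their RING subunit, had 9.89 and 4.98, and NEDD8, the modifier that activates cullins, had 6.67 in HCT116 alone. SKP1, the subunit that binds FBXW7, had 5.64 and 4.37, and CUL1, the scaffold, had 2 HCT116 and 3 SW480 peaks, with 5.45 as its highest SW480 fold.

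**Figure D3:**
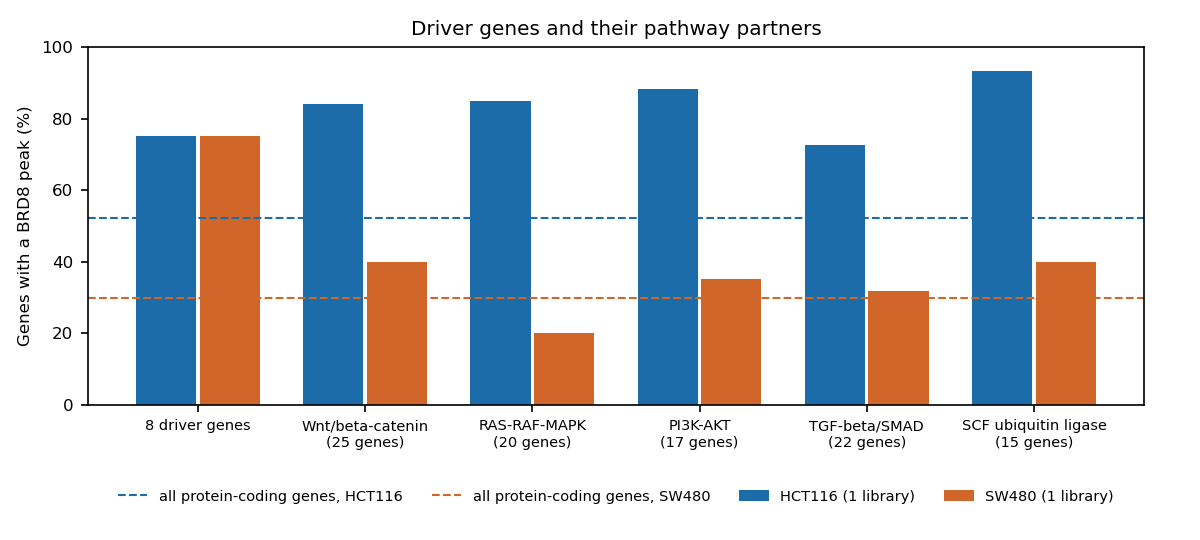
Share of genes with a BRD8 peak by the same rule (%, y axis) for the 8 driver genes and 5 lists of pathway partners (x axis), with HCT116 and SW480 as bars (1 library each) and dashed lines for all protein-coding genes. HCT116 bars lie between 72.7% and 93.3% over a line at 52.3%, and SW480 bars of the partner lists between 20.0% and 40.0% around a line at 29.8%. The lines do not allow for gene length. Coding genes of similar length to the partner lists had 58.9% to 63.0% in HCT116 and 33.1% to 39.2% in SW480.

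Pileup and background were separated for the strongest peak of each bound gene, the one of highest −log10 q. At NRAS the summit pileup was 56 overlapping fragments in HCT116 and 51 in SW480, over a local background of 8.03 and 10.4. CTNNB1 had pileups of 33 and 23 over 5.16 and 6.05, and FBXW7 37 and 27 over 6.88 and 8.65. BRAF had 26 and 21 over 3.75 and 5.19. These 4 genes had the lower pileup and the higher background in SW480. TGFBR2 had 31 and 21 over 5.74 and 4.32, and PIK3CA 14 and 20 over 3.75 and 6.92. Only at NRAS and FBXW7 were the strongest peaks of the lines overlapping regions, so at the other 4 genes the values come from different sites. The medians of the whole lists were 24 and 26 fragments over 5.64 and 6.92, and no scaling for library coverage was applied.

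**Figure D4:**
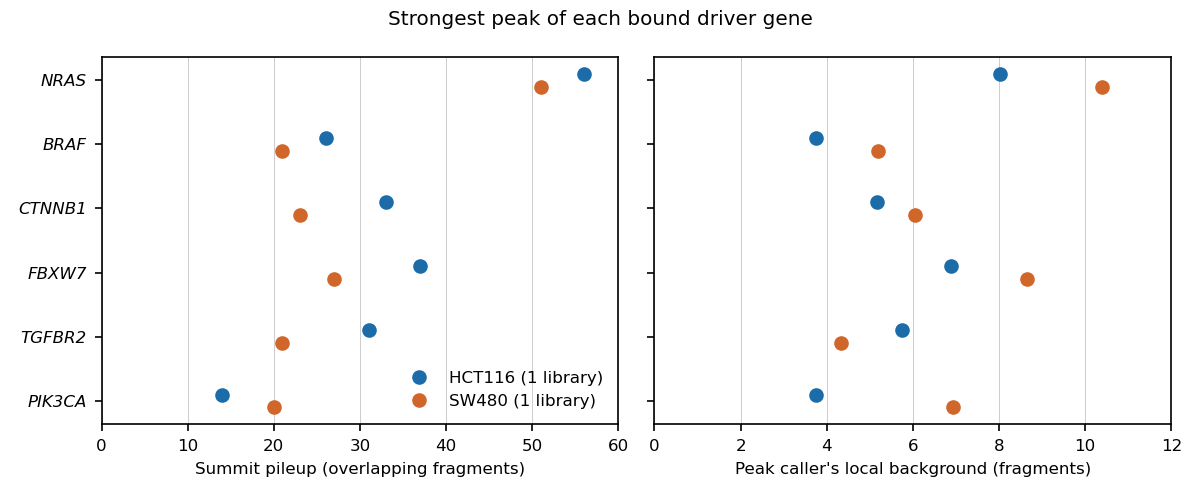
Summit pileup (left, overlapping fragments) and the peak caller's local background (right, fragments) for the peak of highest −log10 q at each of the 6 bound driver genes, 1 point per line and library. NRAS has the highest pileup in both lines, 56 and 51, and the other genes lie between 14 and 37.

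Sharing of peaks between the lines was close to that of other coding genes. Of the 20 HCT116 driver gene peaks 5 overlapped a SW480 peak by at least 1 bp, against 27.5% of all HCT116 peaks at coding genes. Of the 10 SW480 peaks 6 overlapped an HCT116 peak, against 59.6%. At gene ends, 3 of 6 HCT116 peaks and 4 of 4 SW480 peaks overlapped, against 38.2% and 88.7% of peaks at coding gene ends. Inside the genes it was 2 of 14 and 2 of 6, against 15.5% and 32.8%. The overlapping sites were at NRAS, BRAF and FBXW7, at PIK3CA with 2 SW480 peaks, and inside TGFBR2. The HCT116 share is set largely by TGFBR2, whose 13 peaks include 1 that overlapped.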

How the data were processed

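Per the labels' protocols, chromatin was fixed for 10 minutes, BRD8 was precipitated with 2 µg of antibody, and both ends of each fragment were read for 150 bp. Per the submitters' processing notes, Trimmomatic 0.33, Bowtie2 2.4.1, MACS2 and deepTools were used with GRCh38. How reads were filtered is not given in the sources used here. Each ChIP library has its own deposited peak list, unpooled, called at q 0.05. As deposited, fold enrichment is a ratio of ChIP to local background, and −log10 of the p-value and of the q-value refer to the summit. The deposited score is a rounded form of the −log10 q and was not used. The lists give no read totals, so depth is unknown.

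Chromosomes 1 to 22 and X were analysed, leaving out 9 HCT116 and 72 SW480 peaks. Genes and promoters came from RefSeq (GRCh38.p14), and strand was available for 15811 of 19970 coding genes and all 8 driver genes. Summit pileup and background were solved from fold and p (tolerance 0.0001 on p) for 99.996% of HCT116 and 99.992% of SW480 peaks, after the solver was tested on simulated data. Python 3.11.15, pandas 2.3.3, NumPy 2.4.6 and SciPy 1.17.1 were used. No test between lines was made.

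The members and the pathway lists were chosen with earlier results of these data known, and the motifs after the promoter sequences were seen. Genes were named by rule: all 8, genes with an end within 1 kb of their summits, the 3 partners per list with the highest HCT116 fold, up to 3 with a SW480 peak alone, and the 3 genes nearest to NRAS in fold. Other partners named (such as PIK3R1, SMAD3, TGFBR1, CUL1, SKP1, RNF43, BCL9L, TCF7L2, the 4 RAS-list genes bound in SW480 and those with no peak) were chosen after their values were seen. Some genes that the rule takes are not reported here. Alternatives covered the q threshold, the window, the summit rule, equal list lengths and the overlap rule.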

Additional observations from a re-analysis of the deposited data

How the results depend on the processing

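Of 32 values under 8 alternative settings, 25 stayed within 1.5 times the reported count and 7 did not. At a −log10 q of at least 5, driver genes with a SW480 peak fell from 6 to 2, SW480 peaks from 10 to 2, HCT116 peaks from 20 to 9 and SW480 driver gene peaks shared with HCT116 from 6 to 1, with fewer peaks in both lists by construction. Without a window around the gene the shared peaks were 3, since those at BRAF, FBXW7 and PIK3CA upstream of the start drop out. They were also 3 when summits had to lie within 250 bp. With the HCT116 list limited to its 12874 strongest peaks, HCT116 driver gene peaks were 10 and PIK3CA was lost. APC and SMAD4 had no peak under any of these settings. No paired analysis was possible because each line has 1 ChIP library and no test was made. Each list ends at a q threshold, so a gene without a peak is not shown to lack BRD8.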
